A study of Mus musculus with 32 samples.

Results

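Gcdh, Cherp, Hsdl1 and Lpar2 are 4 genes of mouse chromosome 8, which also carries Cdh8 and Cdh11, and their levels were followed in the forebrain (Fb) and midbrain (Mb) of embryos that lack type II cadherins. They were chosen because earlier readings of the same libraries had shown them to differ between mutant and WT embryos, so that their mutant values are given as a description without a test. They were matched by Ensembl identifier to the first column of each file and are 4 of 48576 identifiers, of which 2324 lie on chromosome 8. All 4 were at or above 1 FPKM in every library, where FPKM is the number of fragments on a gene scaled to its transcript length in kilobases and to the mapped fragments of the library.

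The series compared RNA from dissected Fb and Mb of mouse embryos from B6C3F1-derived stock at embryonic day (E) 9.5 in 4 groups. Each tissue had 6 libraries of WT, 4 of TKO_Ex, 3 of DKO_Ex and 3 of DKO_CD, and there were 32 in all. TKO_Ex were Cdh6/8/11 triple knockouts with exencephaly, an open brain, and DKO_Ex were Cdh8/11 double knockouts with exencephaly. DKO_CD were double knockouts with a cranial defect but a closed brain, which the labels name Cdh6/8 and the methods of the study Cdh8/11. Every mutant allele is a small deletion in the exon that holds the start codon, made by genome editing in B6C3F1 eggs and descended from a single triple heterozygous mouse. WT embryos came from WT matings and mutants from triple heterozygous matings. B6C3F1 mice are hybrids of the C57BL/6 and C3H strains, so chromosome 8 of their descendants can carry either parental version. Loss of Cdh8 and Cdh11, and the version of chromosome 8 inherited with the deleted alleles, cannot be told apart in these groups. For 12 DKO libraries, the group in the file's heading and the group in its record are swapped between DKO_Ex and DKO_CD, and the headings were followed.

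The 4 genes have unrelated roles. Lpar2 encodes a G-protein-coupled receptor for lysophosphatidic acid, a lipid signal made outside the cell by autotaxin (Enpp2) and known to act on neural progenitors. Gcdh encodes glutaryl-CoA dehydrogenase, a mitochondrial flavoprotein in the breakdown of lysine and tryptophan, whose loss in humans causes a glutaric aciduria with injury to the brain. Cherp encodes a protein named for calcium control in the endoplasmic reticulum that is also found with the U2 snRNP, a part of the splicing machinery. Hsdl1 encodes a mitochondrial protein of the short-chain dehydrogenase family, related to hydroxysteroid dehydrogenases. A gene can differ between mouse lines when a deleted locus is selected, because neighbouring stretches of the chromosome are inherited with it.

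On GRCm38, Lpar2 (ENSMUSG00000031861) lies on the plus strand at chr8:69822429-69831102, and Cherp (ENSMUSG00000052488) on the minus strand at chr8:72460489-72475226. Gcdh (ENSMUSG00000003809) lies on the minus strand at chr8:84886393-84893921 and Hsdl1 (ENSMUSG00000034189) on the minus strand at chr8:119561989-119575183. Their starts are 29.6, 26.9, 14.5 and 20.2 megabases from the start of Cdh8, in that order. Lpar2, Cherp and Gcdh lie on the side of Cdh8 with the lower coordinates. Hsdl1 lies beyond Cdh11, 16.8 megabases from its start, and Cdh8 and Cdh11 are 3.37 megabases apart. The 4 genes thus span 49.8 megabases with both targeted loci between Gcdh and Hsdl1. The 3′ end of Gcdh overlaps Syce2 on the opposite strand, and the 3′ end of Cherp overlaps 1700030K09Rik on the opposite strand. Hsdl1 starts head to head with Dnaaf1, 0.052 kb away.

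The 250 bases before a RefSeq start of each gene are shown because the 4 genes sit in separate parts of the chromosome, and the letters let their start regions be compared. They are RefSeq sequences of GRCm38.p6, read 5′ to 3′ on the strand of the gene. The windows are chr8:69822315-69822564 (plus strand) for Lpar2, chr8:72475234-72475483 (minus strand) for Cherp, chr8:84893922-84894171 (minus strand) for Gcdh and chr8:119575176-119575425 (minus strand) for Hsdl1, whose first of 2 RefSeq starts was taken. Capitals mark a GC box (GGGCGG, or CCGCCC where it lies on the other strand) or a CCAAT box.
Lpar2: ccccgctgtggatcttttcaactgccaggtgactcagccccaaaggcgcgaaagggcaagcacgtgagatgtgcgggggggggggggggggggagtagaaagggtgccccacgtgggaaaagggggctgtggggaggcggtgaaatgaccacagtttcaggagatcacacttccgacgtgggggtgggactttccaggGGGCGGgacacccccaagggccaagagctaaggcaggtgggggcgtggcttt
Cherp: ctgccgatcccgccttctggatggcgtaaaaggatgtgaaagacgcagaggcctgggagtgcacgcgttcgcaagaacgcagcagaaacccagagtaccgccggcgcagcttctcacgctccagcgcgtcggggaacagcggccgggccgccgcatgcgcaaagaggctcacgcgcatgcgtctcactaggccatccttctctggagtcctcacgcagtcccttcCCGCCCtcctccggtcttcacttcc
Gcdh: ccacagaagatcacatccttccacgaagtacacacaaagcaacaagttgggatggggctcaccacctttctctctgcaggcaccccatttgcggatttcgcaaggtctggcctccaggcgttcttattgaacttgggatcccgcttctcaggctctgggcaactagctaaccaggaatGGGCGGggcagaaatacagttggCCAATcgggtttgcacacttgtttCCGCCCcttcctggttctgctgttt
Hsdl1: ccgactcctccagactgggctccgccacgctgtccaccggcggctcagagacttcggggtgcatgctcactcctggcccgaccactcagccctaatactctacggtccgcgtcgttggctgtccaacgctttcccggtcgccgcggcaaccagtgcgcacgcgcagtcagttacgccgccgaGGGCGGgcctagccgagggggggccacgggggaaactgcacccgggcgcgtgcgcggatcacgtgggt
Searched on both strands, Gcdh had 2 GC boxes and Cherp, Hsdl1 and Lpar2 had 1 each, and a GC box is in 32.7% of the 32851 promoters of the same length. The Gcdh window also had 1 CCAAT box, as did 33.8% of promoters, and none of the 4 had TATAAA, which is in 12.4%. These motifs do not overlap each other. The windows of Hsdl1 and Cherp were rich in CpG, with 31 and 26 sites (percentiles 94.8 and 90.4 of all promoters), while Lpar2 had 11 (64.4) and Gcdh 8 (57.0). RefSeq and GENCODE starts differ, so the Lpar2 window overlaps the first part of the longer GENCODE transcript given above, its GC box included, and the Hsdl1 window reaches a few bases into the gene. The window of Hsdl1 includes the start of Dnaaf1.

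The depth estimated from the step between low values was 1.965 to 3.255 M fragments (M, mega) per library. At that depth the Lpar2 values rested on about 32 to 140 fragments per library, the Gcdh values on about 25 to 145, the Hsdl1 values on about 58 to 182 and the Cherp values on about 362 to 1056. Counting error is therefore larger for Lpar2 and Gcdh than for Cherp. The labels were checked with the targeted genes. Cdh6 was at 0.388, 0.353, 3.10 and 0.345 FPKM in TKO_Ex Mb replicates 1 to 4, against 1.04 to 3.55 FPKM in WT. The exception, labelled TKO_Ex replicate 3, was as high as WT in the Mb and, at 3.74 FPKM, also in the Fb, where the lowest WT library was at 2.04 FPKM. The other TKO_Ex Fb libraries were at 1.84, 0.766 and 0.572 FPKM. Cdh6 in DKO_CD Mb was at 1.76, 2.11 and 1.29 FPKM, all within the WT range. In DKO_CD Fb it was at 3.43, 1.72 and 2.78 FPKM, where replicate 2 was below the lowest WT library. Cdh8 in Mb was at 1.14 to 10.1 FPKM in WT and 0.851 to 2.49 FPKM in the 10 mutant libraries, and Cdh11 at 17.9 to 28.7 and 14.5 to 27.2 FPKM. In the Fb Cdh8 was at 0.840 to 1.96 FPKM in WT and 0.423 to 3.15 FPKM in mutants, highest in TKO_Ex replicate 4. Cdh11 there was at 19.5 to 25.3 and 12.7 to 25.3 FPKM. A level over the whole gene is no direct reading of a deletion within a single exon, though Cdh6 was below every WT library in 3 TKO_Ex Mb libraries. The Mb markers En1, En2, Pax2, Pax5, Pax7 and Wnt1 summed to 36.5 to 195 FPKM in WT Mb and 89.8 to 188 FPKM in mutant Mb, against 8.07 to 12.3 FPKM in Fb. The library WT Mb replicate 5 stood apart with the lowest sum, En1 at 3.57 FPKM and Pax6 at 52.7 FPKM. The sum of the Mb markers was thus higher in every Mb library than in every Fb library. The label of WT Mb replicate 5 is less clear, since the study used Pax6 as an Fb marker.

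Lpar2 was higher in every mutant library than in every WT library of the same tissue. In the Mb it was at 2.30 to 2.76 FPKM in the 6 WT libraries (median 2.47). It was at 4.98, 4.60, 4.15 and 5.602 FPKM in TKO_Ex, at 5.62, 7.10 and 4.67 FPKM in DKO_Ex and at 4.997, 6.48 and 5.51 FPKM in DKO_CD. The lowest mutant library, the library labelled TKO_Ex replicate 3, was thus above the highest WT library. In the Fb it was at 2.49 to 4.20 FPKM in WT (median 3.97). It was at 7.42, 6.95, 6.06 and 5.85 FPKM in TKO_Ex, at 7.34, 8.32 and 6.73 FPKM in DKO_Ex and at 7.70, 6.85 and 6.68 FPKM in DKO_CD. The groups did not overlap in the Fb either. The mean went from 2.52 ± 0.187 FPKM in WT Mb (SD, n = 6) to 5.37 ± 0.897 FPKM in mutant Mb (SD, n = 10), a ratio of 2.13, and from 3.71 ± 0.631 to 6.99 ± 0.740 FPKM in the Fb, a ratio of 1.89. On the log2(FPKM + 1) scale, which understates changes of low genes, the difference was 0.84 in the Mb (standard error 0.10) and 0.77 in the Fb (0.10). By group the ratio to WT was 1.92 in TKO_Ex, 2.30 in DKO_Ex and 2.25 in DKO_CD Mb, and 1.77, 2.01 and 1.91 in the Fb. These groups were set against the same WT libraries. All mutant libraries lay above all WT libraries for 0.0973% of 13363 genes tested in the Mb (13 genes) and for 0.113% of 13272 in the Fb (15 genes), and below them for 0.0374% (5 genes) and 0.0904% (12 genes). Of the 4 genes, 1 did so in either tissue, namely Lpar2. This is the contrast that chose it.

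**Figure D1:**
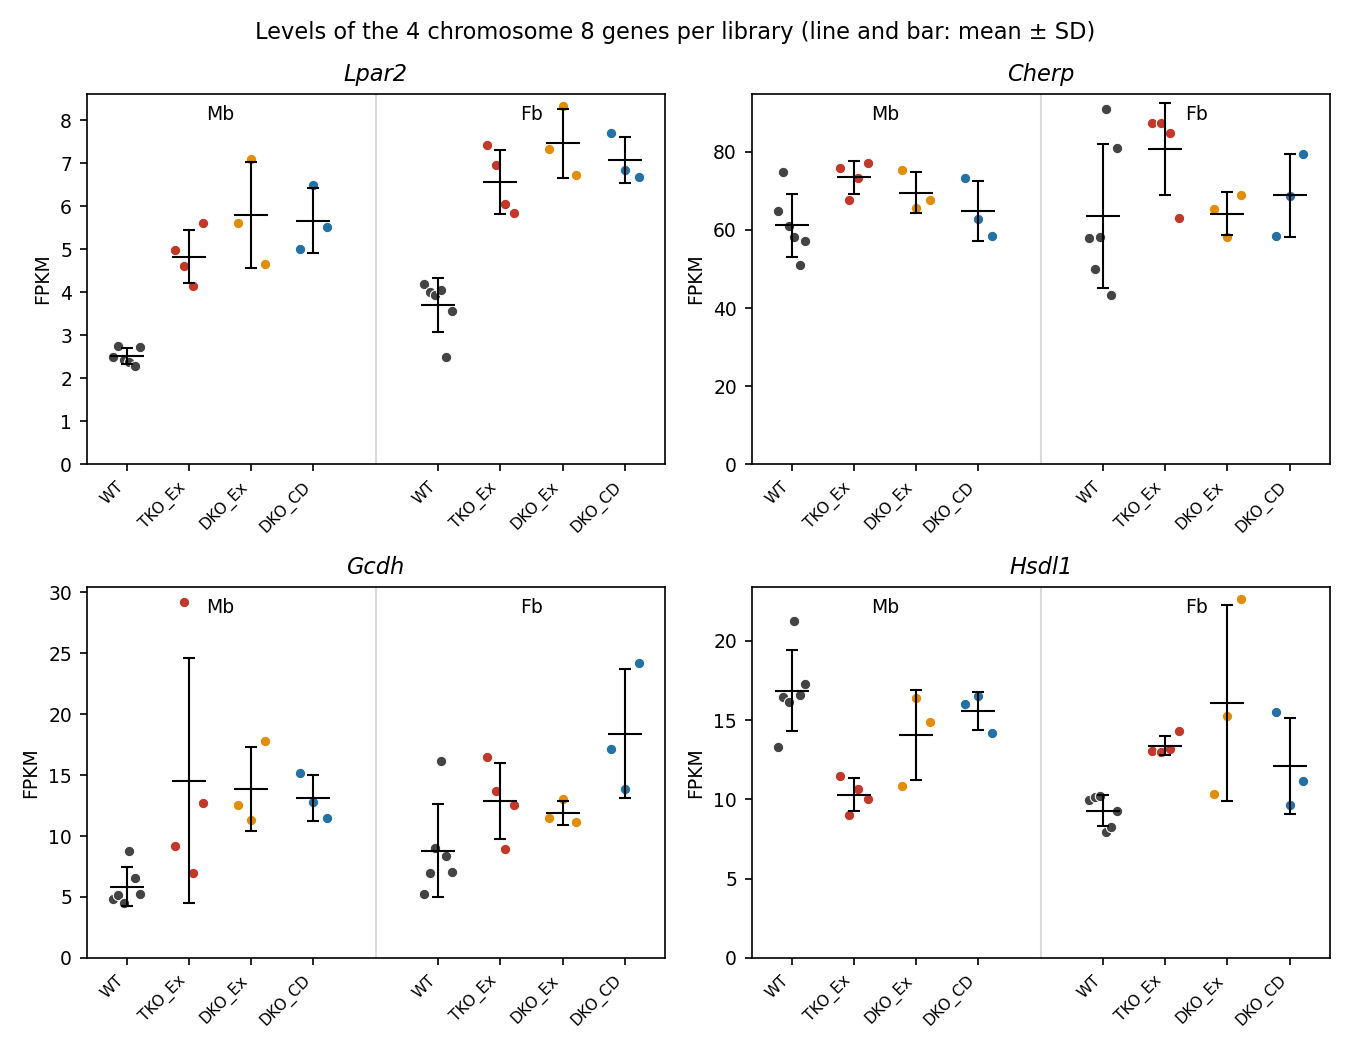
FPKM of Lpar2, Cherp, Gcdh and Hsdl1 (vertical axes, from 0) in each library, by group, for Mb (left of each panel) and Fb (right), with points for libraries and a line and bar for the mean ± SD of the group. Lpar2 in mutants (4.15 FPKM and above in Mb, 5.85 FPKM and above in Fb) does not overlap WT, while Hsdl1 in TKO_Ex lies below WT in Mb and above WT in Fb.

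Gcdh was higher in most mutant libraries, with a wide spread. In the Mb it was at 4.49 to 8.74 FPKM in WT (median 5.22). It was at 9.21, 29.2, 6.99 and 12.7 FPKM in TKO_Ex, at 12.5, 11.3 and 17.8 FPKM in DKO_Ex and at 15.2, 12.8 and 11.4 FPKM in DKO_CD. In all, 9 of 10 mutant Mb libraries were above every WT library, the exception being the library labelled TKO_Ex replicate 3. In the Fb it was at 5.26 to 16.2 FPKM in WT (median 7.72). It was at 16.5, 13.7, 8.94 and 12.6 FPKM in TKO_Ex, at 11.5, 13.0 and 11.2 FPKM in DKO_Ex and at 17.1, 13.9 and 24.2 FPKM in DKO_CD. Here 3 of 10 mutant libraries were above every WT library, because WT Fb replicate 4 was at 16.2 FPKM and the next WT library at 9.04. The mean went from 5.85 ± 1.58 in WT to 13.9 ± 6.12 FPKM in mutants in the Mb (SD, n = 6 and 10), a ratio of 2.38, and from 8.81 ± 3.83 to 14.3 ± 4.25 FPKM in the Fb, a ratio of 1.62. The difference on the log2(FPKM + 1) scale was 1.06 in the Mb (standard error 0.22) and 0.67 in the Fb (0.20). The DKO_Ex and DKO_CD means in the Fb, 11.9 and 18.4 FPKM, change places when the DKO libraries are grouped by record.

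Cherp, by far the most abundant of the 4, differed least. In the Mb it was at 51.0 to 74.8 FPKM in WT (median 59.7). It was at 75.7, 67.6, 73.3 and 77.1 FPKM in TKO_Ex, at 75.4, 65.5 and 67.7 FPKM in DKO_Ex and at 73.2, 62.8 and 58.4 FPKM in DKO_CD. The groups overlapped, with 3 of 10 mutant libraries above every WT library, 2 of them TKO_Ex. In the Fb it was at 43.5 to 91.0 FPKM in WT (median 58.1). It was at 87.4, 87.3, 84.9 and 63.0 FPKM in TKO_Ex, at 65.3, 58.2 and 69.0 FPKM in DKO_Ex and at 58.3, 68.6 and 79.5 FPKM in DKO_CD. No mutant Fb library left the WT range. The ratio of the mutant mean to the WT mean was 1.14 in the Mb (69.7 ± 6.24 FPKM against 61.2 ± 8.09, SD, n = 10 and 6) and 1.13 in the Fb (72.2 ± 11.6 against 63.6 ± 18.4). On the log2(FPKM + 1) scale the difference was 0.19 (standard error 0.08) and 0.21 (0.15). Among groups it was largest in TKO_Ex, at 1.20 times WT in the Mb and 1.27 times in the Fb.

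Hsdl1 differed from WT in opposite directions in the tissues. In the Mb it was at 13.3 to 21.3 FPKM in WT (median 16.5). It was at 11.5, 9.003, 10.7 and 10.1 FPKM in TKO_Ex, at 10.9, 16.4 and 14.9 FPKM in DKO_Ex and at 15.999, 16.5 and 14.2 FPKM in DKO_CD. All 4 TKO_Ex libraries and 1 DKO_Ex library were below every WT library, and the other 5 were within the WT range. In the Fb it was at 7.93 to 10.2 FPKM in WT (median 9.62). It was at 13.1, 13.0, 13.2 and 14.3 FPKM in TKO_Ex, at 10.4, 15.3 and 22.7 FPKM in DKO_Ex and at 15.5, 9.68 and 11.2 FPKM in DKO_CD. Here 9 of 10 mutant libraries were above every WT library. The 4 TKO_Ex libraries lay below every WT library in the Mb for 0.524% of 13363 genes tested (70 genes) and above every WT library in the Fb for 1.42% of 13272 (188 genes). Of the 12800 genes tested in both tissues, 0.00781% did both, which is Hsdl1 alone. Hsdl1 was chosen for this difference between tissues, so the count is a description. The TKO_Ex mean was 0.611 times WT in the Mb and 1.44 times WT in the Fb, against 0.879 and 1.52 times in the 6 pooled DKO libraries. The mutant effect in Mb minus that in Fb was -0.86 on the log2(FPKM + 1) scale (standard error 0.20), and -1.14 with TKO_Ex as the only mutants (0.15) or -0.68 with the DKO groups as the only mutants (0.22). The value was -0.84 without the libraries labelled TKO_Ex replicate 3 and WT Mb replicate 5. The DKO_CD means, 15.6 FPKM in the Mb and 12.1 in the Fb, would be 14.1 and 16.1 under the grouping by record.

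The tissues hold several cell types, and in bulk RNA fewer cells of a type and less RNA per cell cannot be told apart. The surface ectoderm markers Krt8, Krt18, Epcam, Cdh1 and Grhl2 summed to 23.3 to 36.4 FPKM in WT Mb and 20.3 to 70.6 FPKM in mutant Mb, and to 57.1 to 94.3 and 75.6 to 222 FPKM in the Fb. Neural crest and mesenchyme markers (Twist1, Prrx1, Sox10, Pdgfra and Foxc1) summed to 42.0 to 70.8 and 49.2 to 111 FPKM in the Mb, and to 106 to 141 and 52.0 to 122 FPKM in the Fb. Endothelial markers (Kdr, Pecam1, Cdh5, Tie1 and Emcn) were at 24.5 to 43.6 and 22.1 to 42.7 FPKM in the Mb and at 26.8 to 38.1 and 18.0 to 44.0 FPKM in the Fb. Primitive red cell markers (Hbb-bh1, Hbb-y, Hba-x, Gata1 and Alas2) were at 4684 to 21338 and 5717 to 19198 FPKM in the Mb, and at 2396 to 21505 and 3601 to 14319 FPKM in the Fb. No marker of these 4 classes was at 0 throughout a group. The ranges of WT and mutants overlapped for all 4 classes in both tissues, while medians differed, as for surface ectoderm in the Fb (75.4 FPKM in WT and 96.8 in mutants) and neural crest and mesenchyme in the Fb (119.9 and 100.6). The part of these cell types in the values of the 4 genes was not tested.

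In the WT libraries alone, the levels of the tissues were compared without any mutant. Lpar2 was at 2.52 ± 0.187 FPKM in the Mb and 3.71 ± 0.631 FPKM in the Fb, a difference of -0.41 on the log2(FPKM + 1) scale (95% interval -0.68 to -0.14; limma, adjusted p = 0.0648). It did not pass over all genes. It did in 4 of 19 alternatives (adjusted p 0.0144 to 0.128), namely with 1 FPKM required in every library, with median-of-ratios scaling, without a trend and without WT Fb replicate 5, which had the lowest Lpar2 of WT Fb. With same-numbered libraries as a block the limma adjusted p was 0.122. Gcdh differed by -0.47 (-0.94 to 0.000898; limma, adjusted p = 0.241) and Cherp by -0.02 (-0.37 to 0.34; limma, adjusted p = 0.970), so neither passed. Hsdl1 was higher in the WT Mb, at 16.9 ± 2.56 FPKM against 9.30 ± 0.980 FPKM in the Fb (SD, n = 6 each), a difference of 0.79. The lowest WT Mb library, at 13.3 FPKM, was above the highest WT Fb library, at 10.2 FPKM. The contrast that chose Hsdl1, the mutant effect in Mb minus that in Fb, contains this very difference, so no test is given for it. The other 3 were chosen within a tissue, from contrasts that share these WT libraries, so their intervals and adjusted p are not independent of the choice. Among all genes 8.26% of 13344 passed (1102 genes). For Hsdl1 in TKO_Ex the order of the tissues was the other way round. The highest Mb library, at 11.5 FPKM, was below the lowest Fb library, at 13.0 FPKM. The share of all genes whose libraries separate the tissues in this way was not counted, in WT or in TKO_Ex.

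Whether the genes differed between kinds of mutants was asked by comparing TKO_Ex with the 6 pooled DKO libraries, which uses no WT library but shares its mutant libraries with the contrasts that chose the genes. In the Mb 0 of the 4 genes passed, against 0.254% of 13385 genes (34, all higher in TKO_Ex). That count fell to between 11 and 26 whichever single library was left out. The 11 came without the library labelled TKO_Ex replicate 3, whose Cdh6 was in the WT range. With the replicate block the count was 3. The block joins same-numbered libraries of different groups. Hsdl1 was lower in TKO_Ex, at 10.3 ± 1.04 FPKM (SD, n = 4) against 14.8 ± 2.13 FPKM (SD, n = 6), a difference of -0.48 (95% interval -0.76 to -0.20) that did not pass over all genes. Lpar2 differed by -0.20 (-0.50 to 0.10), Gcdh by -0.08 (-0.76 to 0.59) and Cherp by 0.13 (-0.06 to 0.32), with limma adjusted p of 0.827, 0.977 and 0.827. In the Fb 0 of the 4 genes passed and 0% of 13325 genes did, while 679 had an unadjusted p under 0.05. There the differences were 0.27 for Cherp (0.01 to 0.53), -0.01 for Hsdl1 (-0.46 to 0.44), -0.13 for Lpar2 (-0.38 to 0.12) and -0.20 for Gcdh (-0.68 to 0.29), and the 4 limma adjusted p ran from 0.960 to 0.997. These intervals do not show that TKO_Ex and DKO have equal levels.

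**Figure D2:**
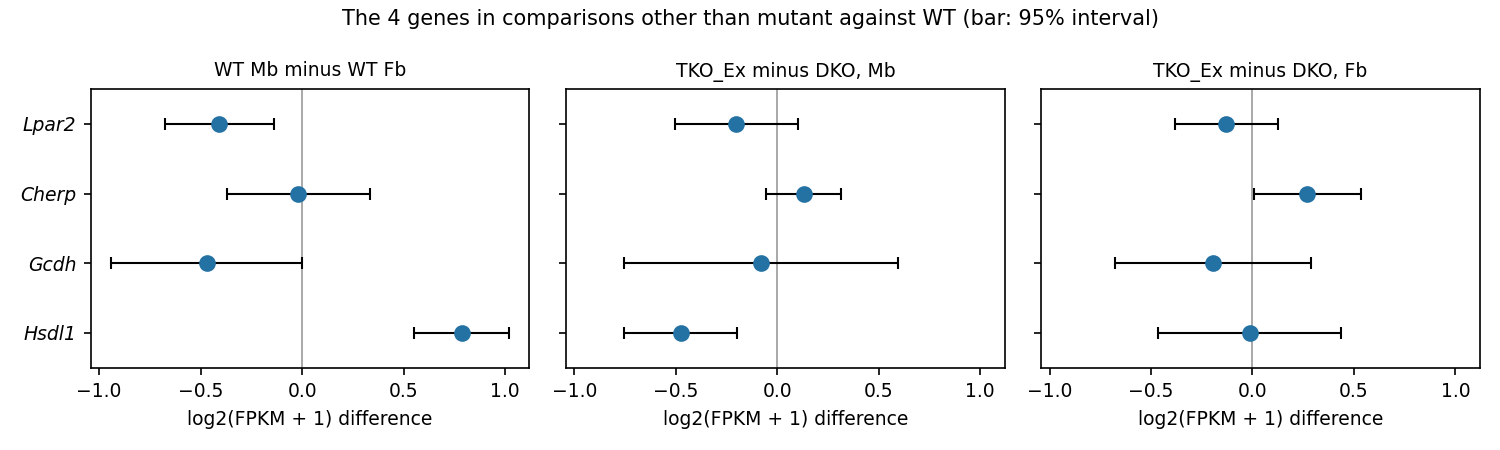
Differences of the 4 genes on the log2(FPKM + 1) scale (horizontal axes) in WT Mb minus WT Fb and in TKO_Ex minus DKO for each tissue, with points for limma estimates and bars for 95% intervals. Hsdl1 stands at 0.79 in the WT comparison and at -0.48 in TKO_Ex minus DKO of the Mb, and Gcdh has the widest interval in each comparison. The contrast that chose Hsdl1 contains its WT difference, so its bar there is a description and no test.

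The spread within groups was set beside that of genes of like level, on the log2(FPKM + 1) scale. Lpar2 had an SD of 0.08 among WT Mb libraries, at percentile 0.432 of 3706 such genes, and this is below the 0.17 expected from counting error alone at its depth. Its SD was at percentile 25.8 in WT Fb, 18.0 in mutant Mb and 3.60 in mutant Fb. Gcdh was at percentile 51.1 in WT Mb, 86.1 in WT Fb, 89.9 in mutant Mb (SD 0.51) and 74.2 in mutant Fb. Cherp was at 46.5, 93.1, 27.4 and 68.1 in the same order, and Hsdl1 at 36.7, 12.05, 59.8 and 65.2. The contrasts that chose the 4 genes use these libraries and favour a small spread within groups, so these percentiles are a description. The counting error is approximate, since it rests on the estimated depth and the longest coding transcript. Within the 10 mutant libraries of a tissue the 4 genes did not share their ups and downs in a uniform way. Pearson's r between pairs ran from -0.53 (Cherp and Hsdl1) to 0.53 (Hsdl1 and Lpar2) in the Mb and from -0.35 (Cherp and Lpar2) to 0.27 (Gcdh and Lpar2) in the Fb, over libraries that differ in depth and genotype.

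Other chromosome 8 genes were read in the same contrast. Pooled mutants differed from WT for 0.127% of 13363 genes in the Mb (17, with 12 higher and 5 lower) and for 0.203% of 13272 in the Fb (27, with 16 higher and 11 lower). Of the 4 genes 1 passed in each tissue, again Lpar2, and nothing is read from it since the contrast chose it. Of the genes called, 7 in the Mb and 12 in the Fb lie on chromosome 8, Lpar2 included, which is 1.09% of its 644 genes tested and 1.85% of 648. The share was 0.204% and 0.62% on chromosome 15, which carries Cdh6, and 0.0736% and 0.0988% on the other chromosomes. Counted without a test, genes with an unadjusted p under 0.05 made up 25.1% (43 of 171) of those between 20 and 35 megabases from Cdh8 in the Mb, 16.2% (22 of 136) between 10 and 20 megabases, 7.69% (10 of 130) closer than 10 megabases and 9.18% (19 of 207) beyond 35 megabases. In the Fb they were 26.3%, 19.9%, 9.16% and 12.9%. On chromosome 15 they were 44 of 489 genes in the Mb and 14.3% in the Fb, the latter above the nearest and the farthest stretch of chromosome 8, and on the other chromosomes 7.16% and 8.47%. The stretches of chromosome 8 include the 4 chosen genes, with Lpar2, Cherp and Hsdl1 between 20 and 35 megabases and Gcdh between 10 and 20. The tissues share no library, but they may share embryos, so they are not independent readings.

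**Figure D3:**
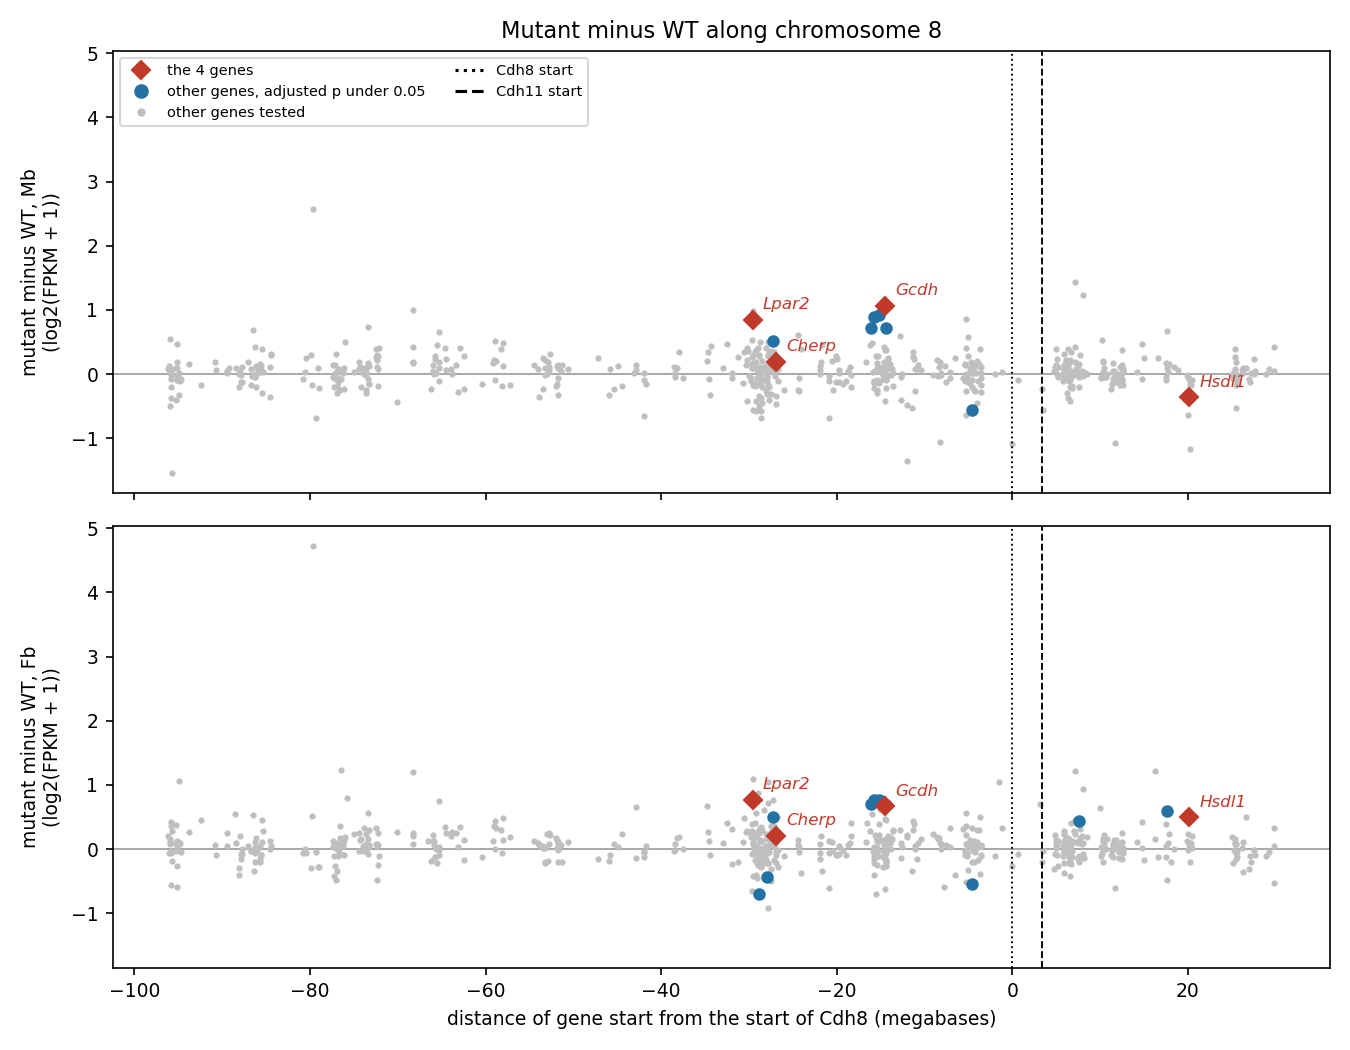
Mutant minus WT on the log2(FPKM + 1) scale (vertical axes) for every chromosome 8 gene tested, against the distance of its start from the start of Cdh8 in megabases (horizontal axis), for Mb tissue (top) and Fb tissue (bottom), with diamonds for the 4 genes, large circles for other genes with an adjusted p under 0.05 and vertical lines at the starts of Cdh8 and Cdh11. No gene beyond 35 megabases passed, and 4 of 7 in the Mb tissue and 6 of 12 in the Fb lie between 10 and 20 megabases.

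Besides Lpar2, 11 genes of chromosome 8 passed in either tissue. Tecr, the last enzyme of very-long-chain fatty acid elongation, was at 154 ± 18.8 FPKM in WT Mb and 285 ± 30.6 FPKM in mutant Mb, a log2 difference of 0.89 (limma, adjusted p = 3.6e-05), and 0.76 in the Fb (3.2e-05). Tpm4, a tropomyosin of the actin cytoskeleton, lies between Lpar2 and Cherp and rose by 0.52 in the Mb and 0.50 in the Fb (limma, adjusted p = 0.00440 and 0.00248), from 152 ± 13.7 to 219 ± 23.3 FPKM in the Mb. Elmod2, which acts on Arf-type GTPases, rose by 0.72 and 0.71, Wdr83os, a small protein of the endoplasmic reticulum, by 0.72 and 0.68, and D8Ertd738e by 0.93 and 0.76, all past the threshold in both tissues. These 3 genes lie within 16.1 megabases of Cdh8, near Gcdh. Ciapin1, needed for iron-sulfur cluster assembly in the cytosol, fell in both tissues, from 53.7 ± 5.63 to 36.1 ± 3.59 FPKM in the Mb (log2 difference -0.56) and by -0.54 in the Fb. Passing in the Fb alone were Gadd45gip1 (0.69) and Mrpl34 (-0.43), both proteins of the mitochondrial ribosome, Rex1bd (-0.70), Cog8 (0.44), a subunit of a Golgi tether, and Gcsh (0.59), a subunit of the glycine cleavage system. Their Mb values were 0.42, -0.05, -0.50, 0.15 and 0.67, and whether the tissues differ was not called for any gene, since 0% of 13441 genes passed the test of the difference (673 with an unadjusted p under 0.05). These genes were called from the same libraries, so the agreement among mutant libraries in the plot by library follows from the call.

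**Figure D4:**
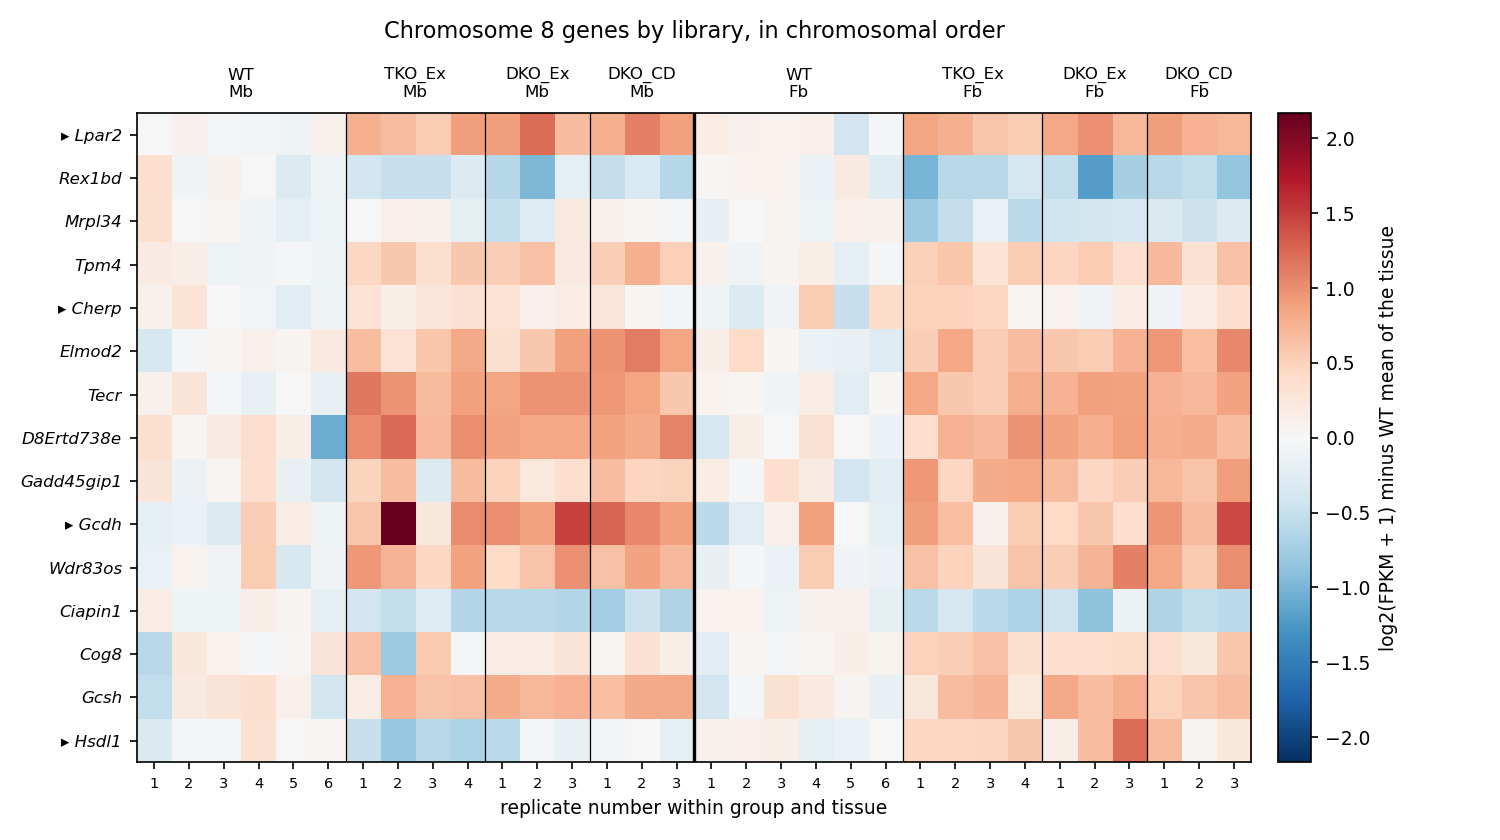
Each library (columns, by tissue, group and replicate number) minus the WT mean of its tissue on the log2(FPKM + 1) scale (colour), for the 4 genes (arrowheads) and the 11 other chromosome 8 genes past the threshold in either tissue, in chromosomal order (rows), with red above and blue below the WT mean. Lpar2, Tpm4 and Tecr are red in every mutant library, Ciapin1 is blue in them, and Hsdl1 in TKO_Ex is blue in Mb and red in Fb.

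The nearest expressed neighbours of the 4 genes did not pass. On either side of Lpar2 lie Gmip (log2 difference 0.10 in the Mb and -0.66 in the Fb), and the homeobox gene Pbx4 (0.99 and 1.09), with limma adjusted p of 0.956 and 0.439, and 0.578 and 0.137. Pbx4 starts 1.39 kb beyond Lpar2 on the same strand. It was at 0.861 to 7.17 FPKM in WT Mb and 1.54 to 14.5 FPKM in mutant Mb. In the Fb it was at 0.620 to 3.64 FPKM in WT (mean 1.95) and 2.22 to 11.5 FPKM in mutants (mean 5.39). Its groups thus overlapped in both tissues, though its log2 differences were larger than those of Lpar2 (0.84 and 0.77). Syce2, a synaptonemal complex gene that overlaps Gcdh, differed by 0.14 in the Mb and -0.09 in the Fb, and Klf1, an erythroid factor on the other side, by -0.42 and -0.62. The limma adjusted p was 0.914 and 0.920 for Syce2 and 0.788 in the Mb for Klf1. Slc35e1 beside Cherp differed by 0.15 and 0.27 and 1700030K09Rik, which overlaps it, by 0.12 and -0.05. Mbtps1, a protease of the sterol response, differed by -0.07 and 0.02 beside Hsdl1, and Taf1c by -0.16 and 0.08. For the neighbours of Cherp and Hsdl1 the limma adjusted p ran from 0.403 to 0.963. Dnaaf1, head to head with Hsdl1, was at 0 to 0.164 FPKM in every library and was below the filter.

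The pathways of the 4 genes were read from lists of related genes. Of 112 genes in 4 lists, 84 were tested in the mutant comparisons, and 1 passed in the Mb and 1 in the Fb, beside 0.127% and 0.203% of all genes. In lysophosphatidic acid signalling, 0 of 25 genes tested passed in either tissue, and their median log2 difference was 0.06 in the Mb and 0.01 in the Fb, against 0.02 over all genes in both. The other receptors Lpar1 (11.3 ± 4.36 FPKM in WT Mb and 12.6 ± 2.80 FPKM in mutant Mb), Lpar4 (5.39 ± 0.976 and 5.97 ± 1.12 FPKM) and Lpar6 (6.38 ± 2.22 and 7.79 ± 1.54 FPKM) overlapped between groups. On the FPKM scale, which is per length, WT Lpar2 thus had a lower mean level than each of these 3 in the Mb. Lpar3 was at most 0.672 FPKM and Lpar5 at most 0.726 FPKM in any library, and Enpp2, which makes the ligand, was at 1.56 ± 0.590 FPKM in WT Mb and 1.94 ± 0.696 FPKM in mutant Mb. In the glutaryl-CoA pathway, which breaks down lysine and tryptophan, 0 of 17 genes passed in either tissue (medians 0.08 and 0.01). In the list of short-chain dehydrogenases 0 of 20 passed (0.04 and 0.11). Hsdl2, the closest relative by name of Hsdl1, was at 5.10 ± 1.19 FPKM in WT Mb and 3.94 ± 0.904 FPKM in mutant Mb. In the list of U2 snRNP proteins and calcium channels around Cherp, 1 of 22 passed in each tissue (medians 0.04 and -0.00374). Phf5a, an SF3b subunit on chromosome 15, rose from 131 ± 8.56 to 172 ± 18.5 FPKM in the Mb (0.38; limma, adjusted p = 0.0382). Snrpa1, a U2 snRNP protein encoded on chromosome 7, fell from 143 ± 10.6 to 108 ± 12.7 FPKM in the Fb (-0.41; limma, adjusted p = 0.0380).

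Between WT tissues 8 of the 84 list genes passed, a share near the 8.26% of all genes. Higher in the Mb was Gnai2, an inhibitory G protein (0.45; limma, adjusted p = 0.000684). Lower in the Mb were the lipid receptor S1pr2 (-0.74), the lipid phosphatase Plpp2 (-0.97) and the adaptor Trip6 (-0.37) of the Lpar2 list, Snrpa1 (-0.35) and Phf5a (-0.26) of the Cherp list, the mitochondrial dehydrogenases Hadh (-0.38) and Hsd17b10 (-0.41), with limma adjusted p from 0.000153 to 0.0440. In TKO_Ex against DKO 0 of 85 genes passed in the Mb and 0 of 86 in the Fb.

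The genes with the most similar pattern were found by Pearson's r of log2(FPKM + 1) over all 32 libraries, among 9153 genes averaging 5 FPKM or more. These libraries share tissue, genotype and depth differences, so r is a description. For Lpar2 they were Tpm4 (r = 0.881), which lies 2.31 megabases away, Srp54c on chromosome 12 (0.838) and the pseudogene Rps3a3 on chromosome 13 (0.817). For Gcdh they were the pseudogene Rps25-ps1 on chromosome 6 (0.784), the chaperone gene Hspa8 on chromosome 9 (0.777) and Wdr83os (0.766), which lies 0.194 megabases away. Lpar2 and Gcdh thus each had among their 3 closest a chromosome 8 gene past the threshold in mutants against WT. Both were chosen for differing between mutants and WT in these libraries, so nothing is read from this. For Cherp they were Tmem131 (0.749), Morc2a (0.744) and the mitochondrially encoded mt-Nd5 (0.726), and for Hsdl1 Asphd2 (0.663) and Cxadr (0.651) were the closest, and none of these lies on chromosome 8. Reads of the pseudogenes and of Srp54c, which has near-identical copies, can be shared with related genes, which leaves their levels uncertain.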

How the data were processed

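Total RNA was taken from Fb and Mb of E9.5 mouse embryos and sequenced from strand-specific libraries. The authors aligned reads with TopHat2 to GRCm38/mm10 and deposited FPKM values per gene from Cufflinks, 1 file per library. Their versions and annotation are not given in the sources used here, and the authors' read counts, made with HTSeq and tested with DESeq2, were not used here. The study tested counts, and limma was used here because the values are FPKM. FPKM is a share of a library, so a few abundant genes can move all others, and its transcript assignment can move values of overlapping genes.

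The 32 libraries were grouped by column heading, which in 12 DKO files names the other DKO group than the record. No column was left unmapped. In each file 65 repeated identifiers were summed. Values were fitted as log2(FPKM + 1) in limma 3.58.1 (R 4.3.3, with a mean-variance trend) over genes averaging 1 FPKM or more in the libraries fitted, with Benjamini-Hochberg adjustment over all of them and a threshold of 0.05. The 6 comparisons were pooled mutants against WT in each tissue, their difference between tissues, WT Mb against WT Fb, and TKO_Ex against pooled DKO in each tissue. Replicates are separate libraries, and where they do not come from separate embryos p-values measure technical spread. Depth was estimated in Python 3.11.15 from the step between low FPKM values of 771 single-transcript genes, and covers counting error only. The fit was tried on simulated counts, drawn independently for each library with the same spread setting for all genes. That setting is simpler than these libraries, and nothing is read from it here. Positions are from GENCODE M21, which held 48218 of 48576 identifiers.

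The 4 genes and the lists were chosen with earlier results of these data known. Named genes were the 4 genes, the targeted genes, the nearest expressed neighbour on either side and any overlapping gene, chromosome 8 genes past the threshold in mutants against WT, the 3 genes most correlated with each, and list genes past a threshold. A correlated gene of Hsdl1 and the sum of the Fb markers are not reported here. Other list genes named (Lpar receptors, Enpp2, Hsdl2) were named for their role. Same-numbered Fb and Mb libraries had the same Xist class in 16 of 16 pairs, but the correlation of their deviations was 0.00756 to 0.140 and over 0.1 in 4 of 16. Of the Mb libraries, 13 of 16 were closest to the Fb library of their number. No source used here ties a number to an embryo, so numbers were not taken as pairs, though they may be. If they are pairs, the main fits between tissues ignore that pairing. Alternatives were another pseudocount (0.1), no or a stricter filter, another scaling, no trend, a replicate block, grouping by record, and each library left out. Xist class as a covariate, leaving out both libraries that stand apart, and WT with TKO_Ex or DKO alone were added after seeing the data.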

Additional observations from a re-analysis of the deposited data

Results flagged for a closer look

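Of 28 groups of 4 to 6 libraries examined, 5 had a single library far from the others, and chance alone marks about 1 in 20 groups. Gcdh was at 16.2 FPKM in WT Fb replicate 4, where the next WT library was at 9.04 FPKM. Cherp was at 63.0 FPKM in TKO_Ex Fb replicate 4, with the next at 84.9 FPKM, and Hsdl1 was at 14.3 FPKM in the same library, with the next at 13.2 FPKM. Lpar2 was at 2.49 FPKM in WT Fb replicate 5, with the next at 3.57 FPKM. Cdh6 was at 3.10 FPKM in the library labelled TKO_Ex Mb replicate 3, with the next at 0.388 FPKM. Hsdl1 differed between tissues in its mutant effect, which in TKO_Ex was lower in the Mb than in the Fb by a log2 difference of -1.14. It was chosen for this difference, which is therefore a description.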

How the results depend on the processing

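Among values of single genes under the alternatives, 571 kept their direction and side of the threshold, 9 passed it where they had not, 16 changed sign and 4 group means moved by more than 1 SD. With a library left out, the Lpar2 difference ran from 0.80 to 0.88 in the Mb and from 0.69 to 0.80 in the Fb. Its sign could not change there, since every mutant library lay above every WT library, so the ranges describe its size only. Gcdh ran from 0.94 to 1.17 in the Mb, and Hsdl1 from -0.43 to -0.30 in the Mb and 0.42 to 0.54 in the Fb. Reversals were of values near 0. Leaving out a library moved Cherp from -0.131 to 0.0781 in the mutant effect of Mb minus Fb (0.0358 with WT and DKO alone) and from -0.117 to 0.0928 between WT tissues, Gcdh in TKO_Ex against DKO of the Mb from -0.47 to 0.17, and Hsdl1 in the Fb from -0.10 to 0.13.

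Counts of genes passed moved more. With a library left out, mutants against WT gave 13 to 22 genes in the Mb and 14 to 31 in the Fb (14 without WT Fb replicate 5 and 17 without replicate 2), the difference between tissues 0 to 1, and WT tissues 870 to 1317. TKO_Ex against DKO gave 11 to 26 in the Mb, with 11, 12 and 13 without the libraries labelled TKO_Ex replicates 3, 1 and 2, 13, 16 and 17 without DKO_Ex replicates 1, 3 and 2, and 20 to 22 without a DKO_CD library, and 0 to 2 in the Fb. The replicate block gave 9 genes in place of 27 for mutants against WT in the Fb and 3 in place of 34 for TKO_Ex against DKO in the Mb. Within a tissue this block joins same-numbered libraries of different groups. Deviations of same-numbered WT and mutant libraries correlated at -0.0863 to 0.0487, with 0 of 20 over 0.1. Between tissues the numbers are not known to pair the samples, though 13 of 16 Mb libraries were closest to the Fb library of their number. For TKO_Ex against DKO in the Mb there were 12 without a filter, 11 without a trend, 22 with WT in the fit and 16 with Xist class as a covariate, and in the Fb 1 without a filter. The difference between tissues gave 2 with WT and TKO_Ex alone and 1 without both libraries that stand apart. The cause of these moves was not tested. Depth limits Lpar2 and Gcdh most.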
